A study of Mus musculus with 2 samples.

Results

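Integrins, laminins and the linkers of the hemidesmosome hold epithelial cells to the basement membrane. Their expression was compared on 2 arrays, 1 of the bulge and 1 of the hairshaft, structures of the mouse hair follicle that the series set side by side. The genes were chosen by name. Of 39 listed integrin chains, laminin chains and hemidesmosome genes, 37 had at least 1 probe set that the platform annotation gives to them alone, with 86 probe sets among 45101 on the array. Itga11 and Itgad had none and are not analysed here. Both structures were cut by laser from eosin-stained frozen skin of C57Bl6 mice aged 21 days, and 30 ng of total RNA from each was amplified before labelling. No treatment or genetic change is named in the labels, and neither label nor protocol states how many animals were used, their sex, the body site or whether animals were pooled.

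Laminins are trimers of an alpha, a beta and a gamma chain that build the basement membrane. Cells bind them through integrins, receptors made of an alpha and a beta chain that span the membrane. In basal keratinocytes the alpha6 and beta4 chains form the hemidesmosome, in which plectin and dystonin tie the receptor to keratin filaments, whereas receptors with the beta1 chain connect through talin and kindlin to actin. In the bulge this attachment keeps follicle stem cells at the basement membrane.

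All values are log2 GCRMA values as deposited, and all differences are bulge minus hairshaft on that scale. There was 1 array for each structure, so replicate spread is unknown, no test was run, and every fold describes these 2 arrays only. A gene took the value of its brightest probe set. The background floor, set from olfactory and vomeronasal receptor probe sets, was 2.70 for the bulge and 2.69 for the hairshaft. An array value at or below it was replaced by the floor, and a fold built on it is written "at least".

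The labels were first set against marker genes. On the bulge array 6 of 7 bulge markers were at least 2-fold higher. So were 6 of 7 hair shaft markers, all but Krt35. On the hairshaft array 5 of the 7 (Krt31, Krt33a, Krt35, Krt86 and Krtap8-1) were at or below the floor. Defining markers of the structure on its label were therefore largely missing from the hairshaft array, while the 4 basal keratinocyte markers were under 2-fold apart. Markers of suprabasal epidermis were bright on both arrays, among them Lor (14.97 in bulge, 15.01 in hairshaft) and Krt1 (13.82 in bulge, 13.93 in hairshaft). All 5 were higher on the hairshaft array, but only Ivl was past 2-fold (2.63-fold). The part of epidermis in the adhesion gene differences was not tested. The bulge array also carried other tissues: all markers above the floor for skeletal muscle (9 of 9), fat cells (5 of 5), endothelium (6 of 6) and smooth muscle (5 of 5) were at least 2-fold higher there. Leukocyte, fibroblast and mast cell markers mostly pointed the other way. None was at least 2-fold higher on the bulge array, against 2 of 8, 3 of 6 and 3 of 5 on the hairshaft array. The 3 fibroblast markers were the collagen genes Col1a1, Col1a2 and Col3a1. Dcn was nearly equal (-0.09), Lum was 1.71-fold higher on the hairshaft array, and Pdgfra was 1.58-fold higher on the bulge array. Fewer cells of a type and less RNA per cell cannot be told apart in such dissected tissue.

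Of the 37 adhesion genes, 36 were above the floor on at least 1 array, all but Itgb3. On the bulge array 8 were at least 2-fold higher (Itga4, Itga5, Itga8, Itgb8, Lama4, Lama5, Lamb2 and Lamc1), or 22.2%, where the share among all 13297 genes above the floor was 11.5%. On the hairshaft array 3 were at least 2-fold higher (Itga6, Itga9 and Lama1), or 8.33%, where the share among all genes was 4.91%. The other 25 were under 2-fold apart. The median difference of the 36 genes was 0.04, and that of all genes above the floor was 0.00. At 8-fold there was 1 adhesion gene, Itgb8, on the bulge side, where 3.02% of all genes passed that limit, and none on the hairshaft side, where 0.188% did. With the mean of each gene's probe sets in place of the brightest, the counts at 2-fold were 4 for the bulge (11.1%, where 9.36% of all genes passed) and 1 for the hairshaft (2.78%, where 4.44% did), so the share on the bulge side was then near that of all genes.

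**Figure D1:**
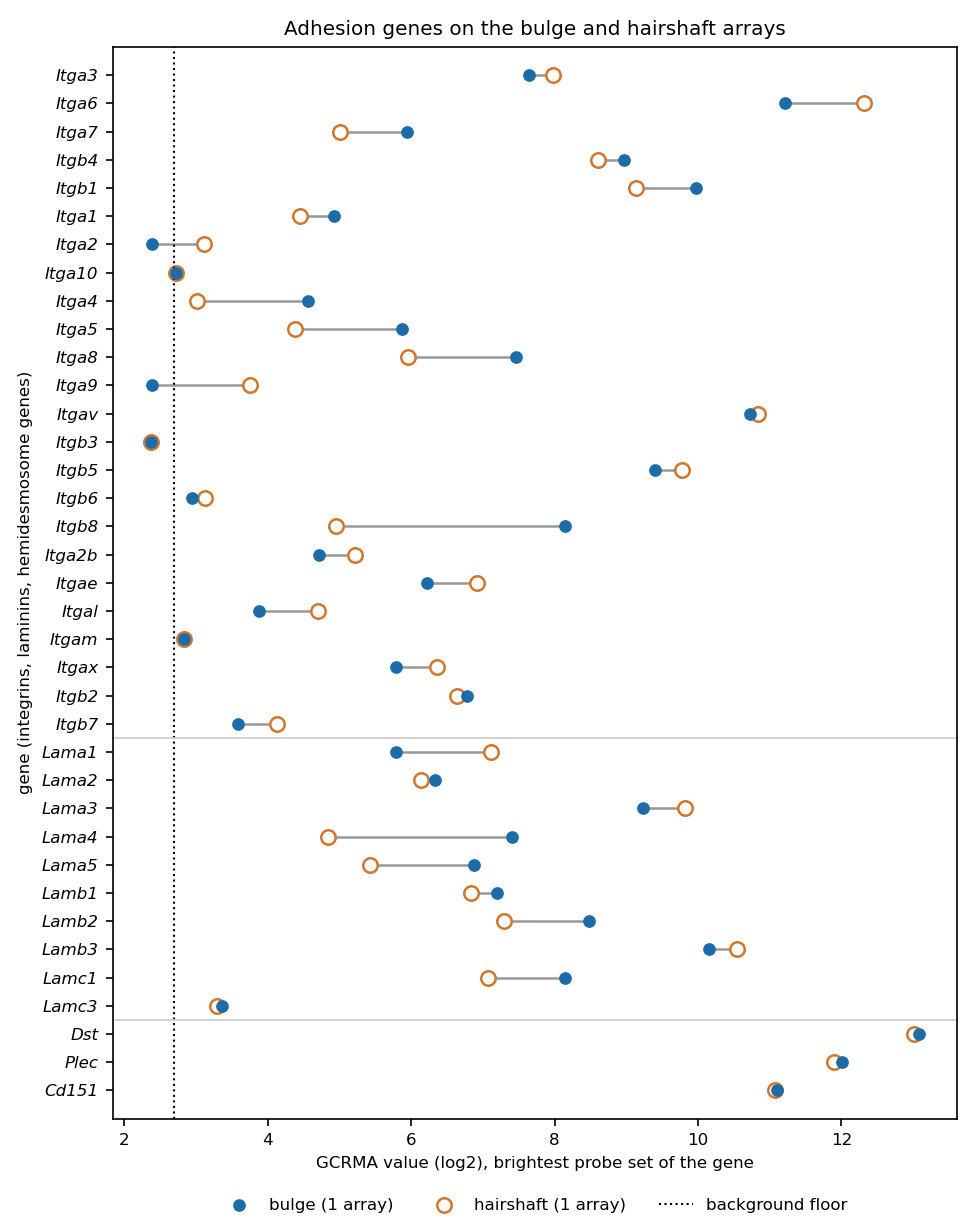
Log2 GCRMA value (x axis) of each integrin, laminin and hemidesmosome gene (y axis) on the bulge array (filled) and the hairshaft array (open), 1 array each, with the background floor dotted. The widest gaps are those of Itgb8 (8.15 in bulge, 4.95 in hairshaft) and Lama4 (7.40 in bulge, 4.84 in hairshaft), while Dst, Plec and Cd151 nearly coincide.

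Among the ligands, 4 of 10 laminin chains were at least 2-fold higher on the bulge side and 1 on the hairshaft side, where 11.5% and 4.91% of all genes were, with a median of 0.28. Lama4, the alpha4 chain of the basement membranes of vessels, fat and muscle, had 7.40 in bulge, against 4.84 in hairshaft, a 5.91-fold difference and the largest among laminins at the brightest probe sets. Its other probe set did not exceed the floor on either array, and averaged over both the Lama4 difference was 1.28, smaller in size than that of Lama1. Lama5, the alpha5 chain found under most mature epithelia and in vessels, had 6.88 in bulge, against 5.43 in hairshaft at its brightest probe set. A second probe set above the floor had 6.04 in bulge, against 5.67 in hairshaft, so that the 2 differed in size (2.72-fold and 1.29-fold) but not in direction. Averaged over all of its probe sets the Lama5 difference was 0.61.

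The partners of these alpha chains were also higher on the bulge array. Lamb2, the beta2 chain of vessel, muscle and synaptic basement membranes, had 8.47 in bulge, against 7.29 in hairshaft (2.27-fold). Lamc1, the gamma1 chain shared by most laminins outside the hemidesmosome, had 8.14 in bulge, against 7.07 in hairshaft (2.09-fold), and its other probe set read 3.10 on both arrays, so that the average of the pair differed by 0.53. Lamb1, the beta1 chain, was 1.29-fold higher at its brightest probe set, with 7.20 in bulge, against 6.83 in hairshaft. Its 2 other probe sets above the floor were 1.92-fold and 1.95-fold higher, so the brightest gave the smallest of the 3 differences.

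Chains of the laminin trimer that anchors hemidesmosomes had the opposite sign, at under 2-fold. Lama3, its alpha3 chain, had 9.23 in bulge, against 9.82 in hairshaft (1.51-fold higher on the hairshaft array). A second Lama3 probe set, the one without a suffix, read 3.05 on both arrays. Lamb3, its beta3 chain, had 10.15 in bulge, against 10.54 in hairshaft (1.31-fold higher on the hairshaft array). The third chain of this trimer is not analysed here. The hairshaft array was thus the higher one for both measured chains of the hemidesmosomal laminin at their brightest probe sets, and the bulge array for Lamb1, Lamb2 and Lamc1.

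Of the remaining laminin chains, Lama1 was higher on the hairshaft array, and Lama2 and Lamc3 were slightly higher on the bulge array. Lama1, the alpha1 chain best known from embryonic basement membranes, had 5.79 in bulge, against 7.12 in hairshaft and was 2.51-fold higher on the hairshaft array, on 1 probe set. Lama2, the alpha2 chain of muscle and nerve, had 6.33 in bulge, against 6.14 in hairshaft (1.14-fold). Lamc3, the gamma3 chain, had 3.36 in bulge, against 3.29 in hairshaft, both little above the floor.

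Markers of vessels and fat moved with Lama4, Lama5, Lamb2 and Lamc1. Those of skeletal muscle, smooth muscle, Schwann cells, the bulge and the hair shaft moved the same way. The summed linear value of 6 endothelial markers was 829 in bulge, against 84.7 in hairshaft, where Pecam1, Cdh5 and Kdr were at or below the floor. That of 5 fat cell markers was 20147 in bulge, against 41.1 in hairshaft, where Adipoq, Lep, Cidec and Pparg were at or below the floor. The part of these cells in the laminin differences was not tested.

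RefSeq promoter sequences (GRCm38.p6) matched 25 of the 39 listed genes, among them Lama5 and Lamb2, laminin chains that were higher on the bulge array, and Itgb8, the integrin chain with the largest difference. These 3 are shown as the 250 bases before the annotated start, 5′ to 3′ on the gene's strand, with matches to the GC box GGGCGG on either strand in capitals. The windows lie at chr2:180225860-180226109 (minus strand), chr9:108479612-108479861 (plus strand) and chr12:119238277-119238526 (minus strand).
Lama5: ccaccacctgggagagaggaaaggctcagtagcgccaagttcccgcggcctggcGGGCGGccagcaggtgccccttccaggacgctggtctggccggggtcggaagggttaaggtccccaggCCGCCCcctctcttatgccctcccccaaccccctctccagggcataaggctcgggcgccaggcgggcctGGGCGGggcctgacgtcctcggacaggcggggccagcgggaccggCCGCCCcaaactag
Lamb2: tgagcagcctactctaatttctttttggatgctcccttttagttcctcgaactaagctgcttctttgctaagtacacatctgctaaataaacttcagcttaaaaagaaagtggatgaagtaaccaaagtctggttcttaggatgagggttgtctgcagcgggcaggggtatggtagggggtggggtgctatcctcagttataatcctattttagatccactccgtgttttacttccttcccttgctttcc
Itgb8: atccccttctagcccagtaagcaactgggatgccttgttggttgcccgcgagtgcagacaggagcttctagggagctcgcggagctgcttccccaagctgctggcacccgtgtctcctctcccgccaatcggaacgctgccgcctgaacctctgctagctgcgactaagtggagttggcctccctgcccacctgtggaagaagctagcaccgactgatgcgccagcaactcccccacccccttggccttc

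The 3 windows had little in common. That of Lama5 held 4 GC boxes, 72.4% G and C and 19 CpG, that of Itgb8 no GC box, 62.4% and 12 CpG, and that of Lamb2 no GC box, 43.6% and 3 CpG. Over all 32851 windows of this length the median was 52.4% G and C and 6 CpG, and 32.7% held a GC box. None of the 3 held the TATA box TATAAA on either strand, which 12.4% of all windows held. A match, or its absence, describes these letters only.

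The hemidesmosome receptor was divided between its chains. Itga6, the alpha6 chain, had 11.21 in bulge, against 12.31 in hairshaft at its brightest probe set, 2.15-fold higher on the hairshaft array, and 11.06 in bulge, against 11.32 in hairshaft at the other (1.19-fold). Itgb4, the beta4 chain that pairs with alpha6 alone, had 8.97 in bulge, against 8.60 in hairshaft, 1.29-fold higher on the bulge array. The alpha6 chain was thus the higher one on the hairshaft array at both of its probe sets, but beyond 2-fold at 1 of them. With the loess trend removed the larger Itga6 difference was -0.98, and averaged over both probe sets it was -0.68.

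Itga3, the alpha3 chain of the other laminin receptor of keratinocytes, had 7.64 in bulge, against 7.98 in hairshaft. All 3 of its probe sets were higher on the hairshaft array, by 1.26-fold, 1.46-fold and, at the dimmest, 2.35-fold. Itgb1, the beta1 chain that pairs with most alpha chains, had 9.97 in bulge, against 9.14 in hairshaft (1.79-fold). Its 2 other probe sets above the floor were 1.87-fold and 2.91-fold higher on the bulge array, while 3 below the floor showed no difference beyond 0.01.

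Linkers of the hemidesmosome were nearly equal at their brightest probe sets. Plec, the cytolinker plectin, had 12.01 in bulge, against 11.90 in hairshaft. Cd151, a tetraspanin that accompanies laminin-binding integrins, had 11.10 in bulge, against 11.07 in hairshaft. Of the 6 Cd151 probe sets, 3 that read between 10 and 11 on the bulge array were 1.51-fold, 1.41-fold and 1.12-fold higher there. Other genes of the hemidesmosome and of basal keratinocytes also lay close together: all 9 on that list, among them Col17a1, were under 2-fold apart. So were most genes above the floor, of which 11.5% passed 2-fold on the bulge side and 4.91% on the hairshaft side. The median of the 9 was -0.02, but 0.17 with the loess trend removed and 0.04 with quantile normalization.

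Dst, which encodes dystonin, differed between its own probe sets. The gene makes an epithelial form that sits in the hemidesmosome and longer forms of nerve and muscle. The brightest probe set read 13.08 in bulge, against 13.01 in hairshaft, and the next read 11.88 in bulge, against 12.17 in hairshaft. The third read 9.47 in bulge, against 8.10 in hairshaft (2.59-fold), and the dimmest read 7.11 in bulge, against 5.30 in hairshaft (3.50-fold). So 2 probe sets of this gene were within 1.22-fold and the other 2 were past 2-fold on the bulge side. The table does not say which form a probe set reports, and the levels of different probe sets cannot be set against each other.

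The RefSeq promoter table holds 2 Dst start sites on the plus strand of chromosome 1, and their windows are shown because the probe sets of this gene disagreed. They lie at chr1:34011345-34011594 (upstream) and chr1:34160010-34160259 (downstream), and capitals again mark GC boxes.
Dst upstream: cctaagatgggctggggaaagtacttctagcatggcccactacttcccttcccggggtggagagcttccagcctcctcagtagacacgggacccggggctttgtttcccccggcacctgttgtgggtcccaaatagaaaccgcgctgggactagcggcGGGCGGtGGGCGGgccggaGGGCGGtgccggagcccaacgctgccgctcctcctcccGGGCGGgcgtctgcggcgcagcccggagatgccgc
Dst downstream: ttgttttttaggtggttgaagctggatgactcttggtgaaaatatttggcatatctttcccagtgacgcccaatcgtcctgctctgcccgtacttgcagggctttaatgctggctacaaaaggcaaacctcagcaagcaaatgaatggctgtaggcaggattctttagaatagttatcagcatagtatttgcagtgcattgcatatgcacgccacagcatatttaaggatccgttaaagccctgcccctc

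The upstream window held 4 GC boxes, 68.8% G and C and 22 CpG. The downstream window held none, with 45.2% G and C and 5 CpG. No probe set could be tied to either start from the tables used here.

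**Figure D2:**
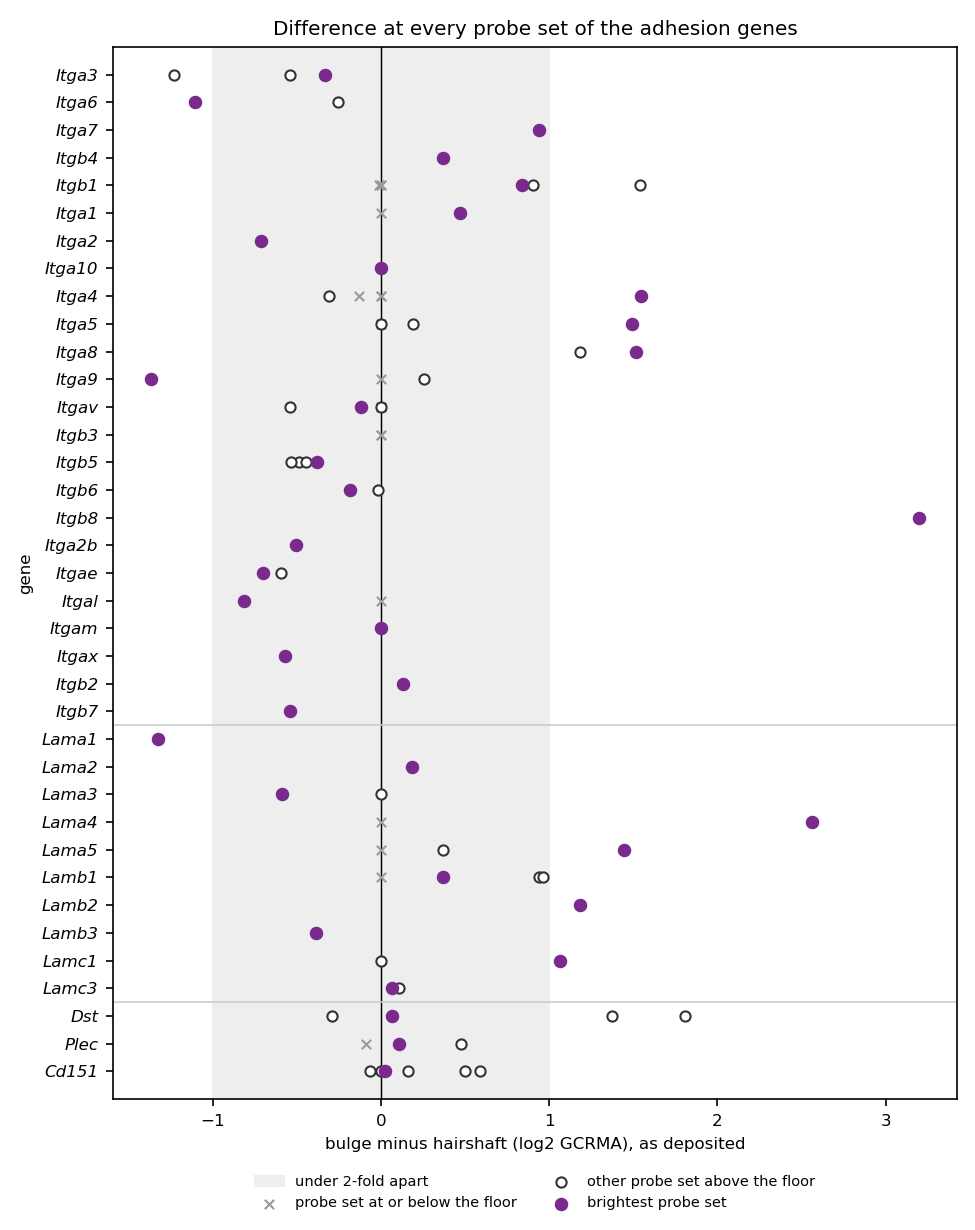
Difference bulge minus hairshaft (x axis, log2 GCRMA as deposited) at each of the 86 probe sets of the adhesion genes (y axis), filled for a gene's brightest probe set, open for others above the floor and crosses for those at or below it, with the band under 2-fold shaded. Dst spans from -0.29 to 1.81, Itga4 from -0.31 to 1.55, and the 4 probe sets of Itgb5 from -0.53 to -0.38.

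Of the alpha chains that bind fibronectin and related ligands, 3 of 5 were at least 2-fold higher on the bulge array, where 11.5% of all genes were. Itga8 had 7.47 in bulge, against 5.95 in hairshaft (2.86-fold), and its second probe set had 3.66 in bulge, against 2.47 in hairshaft. The hairshaft value of the second was below the floor, and both probe sets were higher on the bulge array. In mouse skin the alpha8-beta1 receptor on the arrector pili muscle binds nephronectin that the bulge deposits. Npnt, which encodes nephronectin, had 7.51 in bulge, against 7.15 in hairshaft (1.28-fold). The 5 smooth muscle markers summed to 6150 in bulge, against 1291 in hairshaft, on the linear scale, with none at the floor. Without Des, which skeletal muscle also expresses, they summed to 3832 in bulge, against 1265 in hairshaft, and their part in the Itga8 difference was not tested.

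Itga5, the alpha5 chain of the main fibronectin receptor, had 5.87 in bulge, against 4.38 in hairshaft (2.81-fold). Its 3 other probe sets, at or near the floor, differed by at most 0.19 between the arrays, and with plain probe sets only the Itga5 difference was 0.00. Itga4, the alpha4 chain that binds fibronectin and Vcam1, had 4.57 in bulge, against 3.02 in hairshaft (2.92-fold). A second Itga4 probe set above the floor had 2.90 in bulge, against 3.21 in hairshaft, the other direction. With the floor raised to the 99th percentile of those receptors (4.22 on both arrays), the Itga4 difference was 0.35, and averaged over its 5 probe sets it was 0.15.

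Itga9, a receptor chain for tenascin C, was at least 2.07-fold higher on the hairshaft array, with 2.38 in bulge, against 3.75 in hairshaft. A second probe set had 3.16 in bulge, against 2.91 in hairshaft, so the direction was not the same, and at these values the gene was close to the floor. Averaged over its 3 probe sets the difference was -0.36. Itgav, the alphav chain, had 10.73 in bulge, against 10.84 in hairshaft, and no probe set of it passed 2-fold.

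The beta chains that pair with alphav diverged. Itgb8, whose receptor activates latent TGF-beta, had 8.15 in bulge, against 4.95 in hairshaft, a 9.16-fold difference on its single probe set. Among all genes above the floor, 358 had a larger difference on the bulge side. The Itgb8 difference stayed past 2-fold with 16 added to linear values (2.67), with the loess trend removed (3.18) and with quantile normalization (3.09). The others of the 8 alternative ways of processing could not change it, because its single probe set is a plain one above the floor at either setting. Itgb5, the beta chain of a vitronectin receptor, had 9.40 in bulge, against 9.78 in hairshaft, and each of its 4 probe sets was higher on the hairshaft array, by 1.30-fold to 1.45-fold. Itgb6, whose receptor also activates TGF-beta in epithelia, had 2.94 in bulge, against 3.13 in hairshaft, close to the floor, and Itgb3 was below it on both arrays. Of these 4 chains Itgb8 was the 1 past 2-fold.

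**Figure D3:**
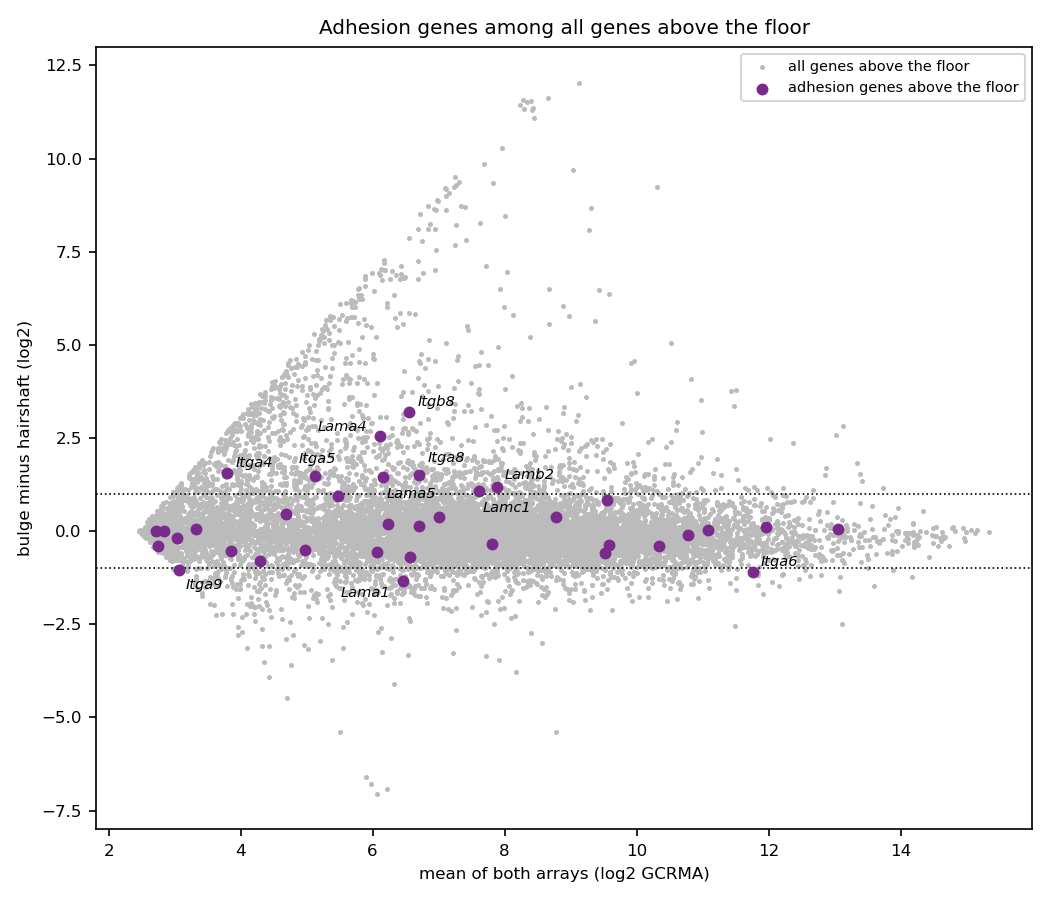
Difference bulge minus hairshaft (y axis, log2, with the floor applied) against the mean of both arrays (x axis, log2 GCRMA) for 13297 genes above the floor (grey) and 36 adhesion genes among them (purple), with dotted lines at 2-fold. The 11 labelled genes are those at least 2-fold apart, and Itgb8 at 3.20 is the highest.

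Integrins that bind collagen were dim. Itga1, the alpha1 chain, had 4.92 in bulge, against 4.45 in hairshaft (1.38-fold). Itga2, the alpha2 chain of keratinocytes and platelets, had 2.39 in bulge, below the floor, against 3.11 in hairshaft, at least 1.33-fold higher on the hairshaft array. Itga10 read 2.72 on both arrays. None of the 3 measured chains passed 2-fold.

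Of 6 measured leukocyte integrin chains, 4 were lower on the bulge array, each by under 2-fold. The share of all genes lower on the bulge array is not given here. None of the 6 passed 2-fold, where 11.5% of all genes did on the bulge side and 4.91% on the hairshaft side. Itgae, the alphaE chain of lymphocytes that bind E-cadherin in the epithelium, had 6.22 in bulge, against 6.92 in hairshaft, and its second probe set had 5.97 in bulge, against 6.56 in hairshaft. Its beta7 partner, Itgb7, had 3.59 in bulge, against 4.13 in hairshaft, both under the 99th percentile floor (4.22). Itgal, the alpha chain of the lymphocyte receptor for Icam1, had 3.88 in bulge, against 4.69 in hairshaft. With the 99th percentile floor the Itgal difference was -0.48. Itgax, a chain typical of dendritic cells, had 5.78 in bulge, against 6.36 in hairshaft.

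The other two were not. Itgb2, the beta chain of leukocytes, was higher on the bulge array (6.78 in bulge, 6.64 in hairshaft), and Itgam, a chain of macrophages and neutrophils, read 2.84 on both arrays. The median of the 6 was -0.56, and it was between -0.67 and -0.35 with the 8 alternatives. The leukocyte markers summed to 8544 in bulge, against 12212 in hairshaft, on the linear scale, with none at the floor. Most of this gap lay in H2-Eb1, a class II antigen-presenting molecule, without which the sums were 8476 in bulge, against 9376 in hairshaft. Of the 8 markers 6 were lower on the bulge array, and H2-Aa and Cd68 were higher there. Fermt3, the kindlin of blood cells, had 7.72 in bulge, against 9.03 in hairshaft (2.48-fold higher on the hairshaft array). The part of leukocytes in these differences was not tested. The platelet chain Itga2b had 4.72 in bulge, against 5.22 in hairshaft, while of 3 measured platelet markers Pf4 had 7.50 in bulge, against 6.97 in hairshaft, and Ppbp and Gp9 did not exceed the floor on either array.

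Muscle genes stood far apart between the arrays, but the laminin receptor chain of muscle did not. Itga7, the alpha7 chain, had 5.94 in bulge, against 5.00 in hairshaft (1.92-fold), on 1 probe set. The 9 skeletal muscle markers above the floor had a median difference of 11.36. All 10 measured summed to 177594 in bulge, against 91.1 in hairshaft, on the linear scale, with Tnnc2, Myh1, Ttn and Myog at or below the floor on the hairshaft array and Myog also on the bulge array. The list of other laminin receptors holds the dystrophin complex of muscle and Utrn, together with Bcam and Rpsa, which are no part of that complex. The bulge array was the higher by 2-fold or more for 4 of its 8 measurable genes (11.5% of all genes) and the hairshaft array for none, with a median of 1.32. The 4, all of the complex, were Sgca, the alpha-sarcoglycan of striated muscle, at least 17.5-fold (6.81 in bulge, 2.43 in hairshaft), sarcospan (Sspn) 10.8-fold, Sgcb 4.81-fold and dystrophin (Dmd) 4.22-fold. Dag1, the dystroglycan that binds laminin itself, had 10.40 in bulge, against 9.84 in hairshaft. Utrn had 9.47 in bulge, against 9.16 in hairshaft (1.24-fold). Bcam, a laminin alpha5 receptor, had 9.11 in bulge, against 9.25 in hairshaft, and Rpsa, a ribosomal protein also known as a laminin receptor, had 13.32 in bulge, against 13.93 in hairshaft.

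Behind the receptor, 8 of 21 adhesion plaque genes and integrin activators were at least 2-fold higher on the bulge array and 1, Fermt3, on the hairshaft array, where 11.5% and 4.91% of all genes were, with a median of 0.46. With the mean of all probe sets the bulge count was 5. Fermt3 was no longer past 2-fold with plain probe sets or averaged ones. Itgb1bp2, melusin, a muscle protein that binds the beta1 tail, had 8.85 in bulge, against 2.55 in hairshaft, at least 71.9-fold. Lims2, an adaptor of integrin-linked kinase, was 10.1-fold higher, and Tln2, the talin of muscle and brain, 5.22-fold. Parvb, another adaptor of that kinase, was at least 4.65-fold higher. Fermt2 (4.39-fold), Tns1 (4.03-fold), Tns3 (3.11-fold) and Parva (2.13-fold) were also past 2-fold on the bulge side. The talin that most cells use, Tln1, had 9.00 in bulge, against 8.64 in hairshaft, and Ilk, the kinase itself, had 9.16 in bulge, against 8.70 in hairshaft. Markers of skeletal muscle, fat cells, endothelium, smooth muscle, Schwann cells, the bulge and the hair shaft moved with this list. Their part in it was not tested.

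Other components of the basement membrane were mostly under 2-fold apart. Of 18 above the floor, the bulge array was the higher by 2-fold or more for 2 and the hairshaft array for 1, with a median of 0.38. These shares, 11.1% and 5.56%, were close to the 11.5% and 4.91% of all genes. Nid2, a nidogen that bridges laminin and collagen IV, was at least 5.02-fold higher on the bulge array (5.01 in bulge, 2.51 in hairshaft), and Col4a2, a chain of collagen IV, was 3.14-fold higher. Sparc, a matrix protein that binds collagen, had 12.46 in bulge, against 13.70 in hairshaft, 2.36-fold higher on the hairshaft array. The fibroblast markers summed to 33970 in bulge, against 82466 in hairshaft, on the linear scale. Of these, only the collagen genes Col1a1, Col1a2 and Col3a1 were past 2-fold, and Pdgfra was higher on the bulge array.

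**Figure D4:**
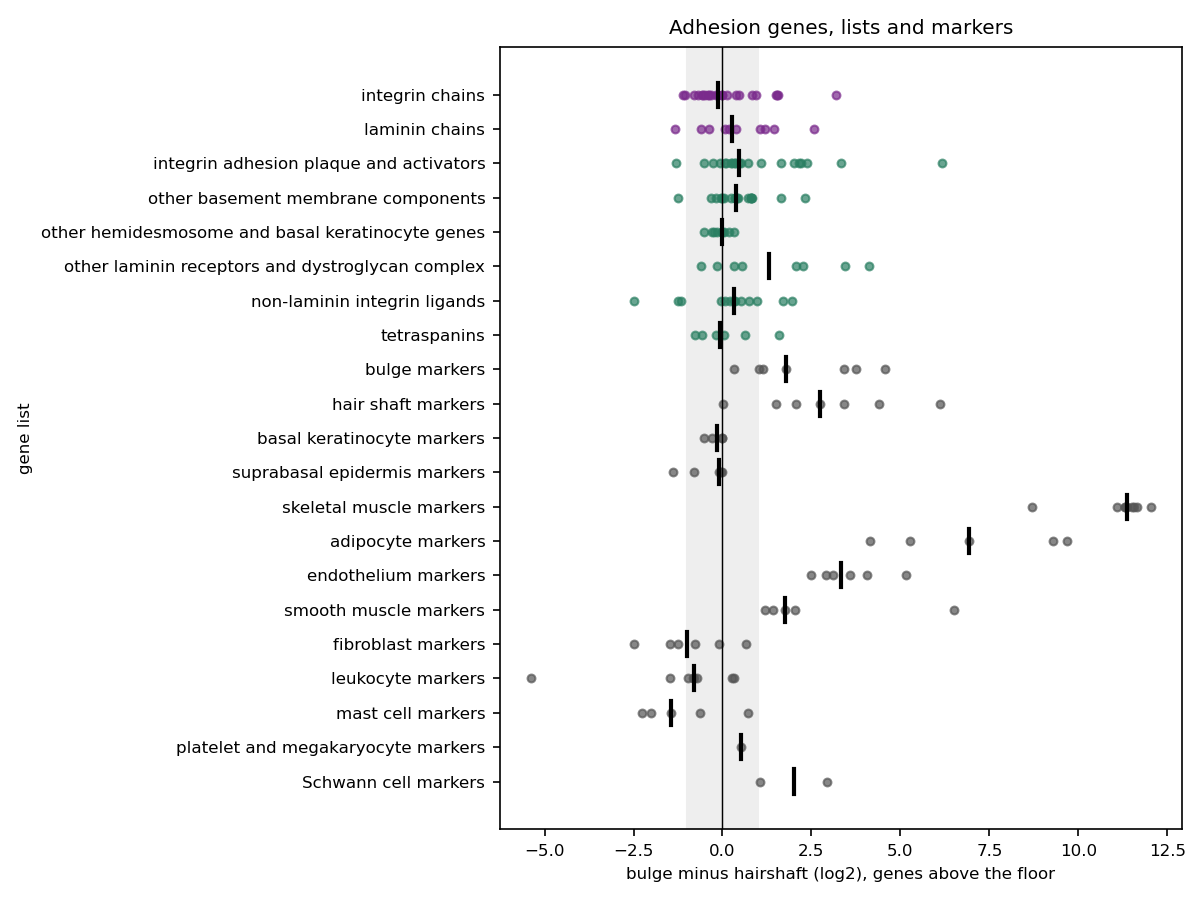
Difference bulge minus hairshaft (x axis, log2, with the floor applied) of the genes above the floor in each list (y axis), with black bars at list medians and the band under 2-fold shaded. The medians of integrin chains (-0.12, or 0.13 with the higher floor) and laminin chains (0.28) lie near 0, with single chains from -1.33 (Lama1) to 3.20 (Itgb8). Skeletal muscle markers centre on 11.36.

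Repeat measurements within genes were the only check on single values. Of 68 probe sets above the floor, 7 (10.3%) read equal on both arrays within 0.005, where 11.5% of all single-gene probe sets above the floor did. Among 17 genes with at least 2 unequal probe sets above the floor, the probe sets had the same direction in 13, and Itga4, Itga9, Dst and Cd151 were the exceptions. In Cd151 the exception was 1 probe set at the floor (2.65 in bulge, 2.71 in hairshaft), while 4 others were higher on the bulge array. The matching rate over all genes is not given here. Some agreeing differences were small, as in Itgb6 (-0.18 and -0.02) and Lamc3 (0.07 and 0.11). Itgb8, Lama1, Lama4 and Lamb2 passed 2-fold on 1 probe set above the floor each, so no second reading was at hand for them.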

How the data were processed

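RNA of the bulge and the hairshaft was measured on 1 array each. The deposited values are log2 summaries that the authors made with GCRMA, per the submitters' processing notes, for which no version or setting is stated there. That they are on a log2 scale follows from their range (2.23 to 15.36). No further scaling was applied, and 0 columns were left unused. A platform annotation gave 34958 probe sets 1 gene, 932 several and 9211 none. Of the 34958, 34754 were matched by Entrez identifier to a RefSeq gene, whose symbol was used. For each of 18194 genes the probe set that was brightest on average was used. The floor was the 95th percentile of 78 olfactory and vomeronasal receptor probe sets on each array. Limits of 2-fold and 8-fold were used for counts. With 0 residual degrees of freedom no test was run, and the number of arrays limits the precision. Counting was tested on simulated data. The genes, lists and tests were chosen with earlier results of these data known. All listed genes that were measured are named. Of each further list, genes at least 2-fold apart are named, up to 4 with the largest difference, and a few others were named after their values were seen. Of 8 alternative ways of processing, 1 was added after seeing the data. Software was Python 3.11.15 with numpy 2.4.6, pandas 2.3.3, matplotlib 3.10.9 and statsmodels 0.14.6. GRCm38.p6 served for names and promoter windows only.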

Additional observations from a re-analysis of the deposited data

How the results depend on the processing

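Each result was recomputed in 8 other ways: with the receptor floor raised to the 99th percentile, without a floor, with all probe sets of a gene averaged, with plain probe sets only (no _a_at, _s_at or _x_at suffix), with 16 added to linear values, with a loess trend taken out (span 0.3), after quantile normalization and, added after seeing the data, with only the probe sets above the floor averaged. Over 36 adhesion genes they gave 278 differences, of which 264 moved by less than 1.5-fold, 14 moved further and 0 of those past 2-fold changed sign. Counts of adhesion genes moved by over 1.5 times with both kinds of average and with no other alternative. With the mean of all probe sets, 4 adhesion genes were at least 2-fold higher on the bulge side and 1 on the hairshaft side, and with the mean of those above the floor 5 and 1. These are 11.1% and 2.78%, where 9.36% and 4.44% of all genes passed, and 13.9% and 2.78%, where 10.4% and 4.95% did. Itga8, Itgb8, Lama1, Lama4 and Lamb2 stayed past 2-fold under every alternative run. However, Itgb8, Lama1 and Lamb2 have 1 plain probe set each, above either floor. Averaging, the plain filter and the floor could therefore not change them, and values fixed in this way are among the 264. Itga5 and Lama3 were 0.00 with plain probe sets, and Lama4 was 1.28, Lama5 0.61 and Lamc1 0.53 with the mean of all probe sets. The adhesion plaque count on the bulge array was 5 with the mean of all probe sets, and that on the hairshaft array 0 with this mean, with plain probe sets and with the mean above the floor. The basement membrane count on the bulge array was 1 with the higher floor and with plain probe sets, and that on the hairshaft array 0 with either mean. The median of the list of other laminin receptors (dystrophin complex, Utrn, Bcam and Rpsa) was 0.56 without a floor, which lets in 1 more gene. It was 2.08 with plain probe sets. No paired analysis was possible because each structure had 1 array, and leaving out a replicate was not possible for the same reason.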

Other observations

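Ligands of integrins other than laminins were divided between the arrays. Among 13 above the floor, at least 2-fold separated 2 on the bulge side (11.5% of all genes) and 3 on the hairshaft side (4.91% of all genes), with a median of 0.33. Postn, the matricellular protein periostin, had 13.72 in bulge, against 12.03 in hairshaft (3.23-fold), and Icam2, an endothelial ligand of leukocyte integrins, had 5.41 in bulge, against 3.45 in hairshaft (3.89-fold). On the hairshaft side were Col1a1 (5.61-fold) and Col3a1 (2.36-fold), fibrillar collagens that are also on the fibroblast marker list, and Tnc, tenascin C, a ligand of the alpha9 chain, with 5.12 in bulge, against 6.30 in hairshaft (2.26-fold). Itga9 itself was past 2-fold on that side at its brightest probe set and not at another.

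Of 6 tetraspanins other than Cd151 above the floor, 5 were under 2-fold apart. Of all genes, 11.5% passed 2-fold on the bulge side and 4.91% on the hairshaft side. Tspan4 had 8.47 in bulge, against 6.88 in hairshaft (3.01-fold). The list median was -0.07, and 0.06 with the loess trend removed.

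Itgb1bp2 and Itga7 both encode muscle partners of the beta1 chain, and the pair were at least 71.9-fold and 1.92-fold higher on the bulge array. Lama2, the laminin chain of muscle, was 1.14-fold apart on the same arrays. Each of Itga7 and Lama2 was read by 1 probe set.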
